A study of Mus musculus with 8 samples.

Results

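The genes described here are 7 genes grouped as late neutrophil genes, Mmp9, Retnlg, Olfm4, Asprv1, Cxcr2, Mrgpra2b and Trpm2, out of 24421 genes in the count table. They were picked by name with results of these same libraries in view, because their levels differed between cells given active and inactive PRMT1. Their values in the 4 groups are therefore given as a description, with no p-value and no claim from a test. Counts of calls among them stand only beside the share called over all genes. The name of the set, late neutrophil genes split by PRMT1 activity, reflects that choice and is not a result. Mrgpra2b goes against the name, since its libraries overlapped between active and inactive PRMT1.

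RNA was sequenced from 8 libraries of mouse HSPCs, the haematopoietic stem and progenitor cells that form all blood lineages, taken from mice after a primary transplant. There were 4 groups of 2 libraries. The dKOPRMT cells were double knockout (dKO) cells carrying introduced wild-type PRMT1, and the dKOMut cells were dKO cells carrying a catalytically dead PRMT1 mutant. The dKOEV cells were dKO cells with an empty vector, and the WTEV cells were wild-type cells with the same kind of control vector. The series title names beta-catenin and Hoxa9 as the genes of interest. For the animals' age and strain, the sort, the vector's promoter and the alleles, the sources used here give nothing. Whether libraries of a group came from separate animals or cultures is unlabelled, so a p-value here reflects only the spread among these libraries, and that spread may be technical.

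Neutrophils mature in steps that are marked by the order in which granule proteins are made. Primary granule proteins such as myeloperoxidase come first, secondary granule proteins such as lactoferrin follow, and gelatinase granule proteins and the receptors for migration and activation come last. CXCR2, the receptor for the chemokines CXCL1 and CXCL2 in the mouse, drives mature neutrophils out of the marrow. PRMT1 is the main enzyme of asymmetric arginine dimethylation, which it places on histone H4 and on many other proteins.

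The libraries held 15531344 to 22329749 counts, and 12744 genes passed the filter on low counts, all 7 described genes among them. Prmt1 stood at 981 and 976 CPM, counts scaled by library total, in dKOPRMT, against 1744 and 1758 CPM in dKOMut. The species of the inserts is not stated, so how much of each insert's transcript these counts hold is unknown. It stood at 190 and 194 CPM in dKOEV and at 188 and 192 CPM in WTEV. Hoxa9 had 1.87 to 5.79 CPM in the 6 dKO libraries and 18.2 and 17.2 CPM in WTEV. Ctnnb1, the beta-catenin gene, had 360 to 391 CPM in the dKO libraries, against 444 and 455 CPM in WTEV (-0.23 ± 0.04 on the log2 scale for dKOEV over WTEV), a small difference beside its double knockout label. Which part of Ctnnb1 was deleted is unknown here, so a count over the whole gene cannot check that label. Xist was counted only in WTEV (159 and 121 CPM) and the Y-linked Ddx3y only in the dKO libraries (58.2 to 68.5 CPM), so between dKOEV and WTEV the knockout cannot be told apart from the animals' sex. Of 14 progenitor markers all had counts in every library, Kit and Cd34 among them, with a summed level of 962 to 977 CPM in dKOPRMT, 1047 to 1070 CPM in dKOMut, 1121 to 1179 CPM in dKOEV and 1270 to 1281 CPM in WTEV. WTEV too is labelled dKO under source and cell type. The genotype given for dKOMut replicate 2 is a mutant of PRMT2, although its title places it in dKOMut. Without that library the median of the 7 genes between dKOPRMT and dKOMut was -1.19.

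Upstream sequence could be matched for 6 of the 7 genes in the RefSeq table of GRCm38.p6, all but Mmp9. The sequences of 4 are shown, 250 bases up to the base before the annotated start, 5′ to 3′ on the strand of the gene. Retnlg and Cxcr2 are shown because they were among the genes lower in dKOPRMT, Olfm4 because its level in dKOMut was above that in dKOEV, and Mrgpra2b because its order of groups differed from that of the other 6. Capitals mark matches, read on both strands, to the C/EBP motif TTGCNNAA (in Retnlg) and the PU.1 motif GAGGAAG (in Olfm4).
Retnlg (chr16:48872358-48872607, plus strand): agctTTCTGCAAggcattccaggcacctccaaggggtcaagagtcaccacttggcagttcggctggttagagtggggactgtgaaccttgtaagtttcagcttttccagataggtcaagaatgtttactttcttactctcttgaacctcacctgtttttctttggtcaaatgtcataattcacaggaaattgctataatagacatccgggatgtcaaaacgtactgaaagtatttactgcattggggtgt
Cxcr2 (chr1:74153744-74153993, plus strand): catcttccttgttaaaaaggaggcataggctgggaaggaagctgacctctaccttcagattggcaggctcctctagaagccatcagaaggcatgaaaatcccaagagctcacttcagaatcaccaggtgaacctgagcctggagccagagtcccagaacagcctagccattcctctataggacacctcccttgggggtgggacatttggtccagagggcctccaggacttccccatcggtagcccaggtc
Olfm4 (chr14:80000052-80000301, plus strand): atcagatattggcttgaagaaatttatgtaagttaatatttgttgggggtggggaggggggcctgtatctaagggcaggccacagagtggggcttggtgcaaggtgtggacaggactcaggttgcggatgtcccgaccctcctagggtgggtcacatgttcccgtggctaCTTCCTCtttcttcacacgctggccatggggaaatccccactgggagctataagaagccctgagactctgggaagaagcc
Mrgpra2b (chr7:47489583-47489832, minus strand): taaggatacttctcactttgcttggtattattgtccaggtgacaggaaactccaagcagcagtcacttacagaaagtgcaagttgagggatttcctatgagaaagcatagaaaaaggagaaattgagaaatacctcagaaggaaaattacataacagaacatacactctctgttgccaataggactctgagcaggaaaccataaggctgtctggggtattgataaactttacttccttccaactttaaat

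The C/EBP match in Retnlg lay 246 to 239 bases before the start, and the PU.1 match in Olfm4 lay 80 to 74 bases before it. Each motif was found in 1 of the 6 matched genes. Over all 32851 promoters of the table, 9.564% held the C/EBP letters and 10.61% the PU.1 letters in the same window. The AP-1 motif TGANTCA was in 0 of the 6 and in 6.749% of all promoters. C/EBP and PU.1 factors are known regulators of granulocyte genes, and a match to their letters describes the sequence only.

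Among secreted proteins, Mmp9 encodes gelatinase B, the enzyme that names the gelatinase granule (ENSMUSG00000017737.2, chr2:164948219-164955849, plus strand, 13 exon blocks). It had 78.6 and 79.9 CPM in dKOPRMT, 226.5 and 211 CPM in dKOMut, 229.0 and 197.5 CPM in dKOEV, and 97.0 and 82.9 CPM in WTEV. The dKOMut and dKOEV libraries overlapped and lay above all others, while dKOPRMT lay below WTEV by less than their summed SDs. The log2 fold change was -1.47 ± 0.07 (SE) for dKOPRMT over dKOMut and 0.04 ± 0.06 for dKOMut over dKOEV. That last value turned to -0.058 without dKOEV replicate 2 and to -0.00543 without dKOMut replicate 1. In these bulk samples fewer cells of a type and less RNA per cell cannot be told apart, here and for every gene that follows.

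Retnlg encodes resistin-like gamma, a small secreted protein of mouse neutrophils (ENSMUSG00000022651.6, chr16:48872608-48874498, plus strand, 4 exon blocks). It had 21.8 and 22.01 CPM in dKOPRMT, 83.5 and 84.5 CPM in dKOMut, 69.4 and 73.8 CPM in dKOEV, and 26.9 and 32.9 CPM in WTEV. No pair of groups overlapped, and each neighbour in the order dKOMut, dKOEV, WTEV, dKOPRMT differed by more than the summed SDs. Its difference between dKOPRMT and dKOMut, -1.94 ± 0.10 on the log2 scale, was the largest of the 7. The gene BC002163 overlaps its span in no exon and had at most 5 counts in a library.

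Olfm4 encodes olfactomedin 4, a granule glycoprotein that marks part of the neutrophils (ENSMUSG00000022026.7, chr14:80000302-80021930, plus strand, 7 exon blocks). It had 40.4 and 42.7 CPM in dKOPRMT, 71.8 and 74.8 CPM in dKOMut, 47.6 and 53.7 CPM in dKOEV, and 15.1 and 14.5 CPM in WTEV. The dKOMut libraries were the highest, and the dKOPRMT libraries lay just below dKOEV and well above WTEV, with no overlap. The log2 fold changes were -0.82 ± 0.09 for dKOPRMT over dKOMut, -0.29 ± 0.09 for dKOPRMT over dKOEV, 0.53 ± 0.09 for dKOMut over dKOEV and 1.78 ± 0.10 for dKOEV over WTEV. Its difference between dKOEV and WTEV was thus the largest of the 7, and its difference between dKOPRMT and dKOEV the smallest.

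Asprv1 encodes a retroviral-like aspartic protease, best known from the outer skin and also made by neutrophils (ENSMUSG00000033508.7, chr6:86628174-86629704, plus strand, 1 exon block). It had 2.91 and 2.33 CPM in dKOPRMT, or 58 and 46 counts, against 7.18 and 7.11 CPM in dKOMut. It had 10.2 and 13.3 CPM in dKOEV and 3.72 and 4.20 CPM in WTEV. The groups did not overlap, with dKOEV above dKOMut and dKOMut above WTEV and dKOPRMT. With so few counts the errors were the widest of the set, at -1.45 ± 0.26 for dKOPRMT over dKOMut, -2.17 ± 0.26 for dKOPRMT over dKOEV and -0.73 ± 0.23 for dKOMut over dKOEV. The last was -0.505 without dKOEV replicate 2.

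Among receptors, Cxcr2 encodes the chemokine receptor named above (ENSMUSG00000026180.8, chr1:74153994-74161246, plus strand, 2 exon blocks). It had 24.7 and 28.7 CPM in dKOPRMT, 61.0 and 63.2 CPM in dKOMut, 75.7 and 70.0 CPM in dKOEV, and 30.02 and 30.3 CPM in WTEV. Both dKOPRMT libraries lay just under the WTEV libraries, and dKOEV lay above dKOMut, with no overlap between any groups. The log2 fold change was -1.22 ± 0.09 for dKOPRMT over dKOMut, -1.45 ± 0.09 for dKOPRMT over dKOEV and -0.23 ± 0.09 for dKOMut over dKOEV.

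Mrgpra2b encodes a Mas-related G protein-coupled receptor that, in the mouse, lets neutrophils respond to defensins of the skin (ENSMUSG00000096719.1, chr7:47463807-47489582, minus strand, 2 exon blocks). It had 9.48 and 7.18 CPM in dKOPRMT, 11.5 and 9.06 CPM in dKOMut, 4.90 and 5.51 CPM in dKOEV, and 10.8 and 10.7 CPM in WTEV. Here dKOEV was the lowest group, dKOPRMT and dKOMut overlapped, and dKOMut and WTEV overlapped. The log2 fold change was -0.31 ± 0.21 for dKOPRMT over dKOMut, 0.67 ± 0.22 for dKOPRMT over dKOEV, 0.98 ± 0.22 for dKOMut over dKOEV and -1.04 ± 0.22 for dKOEV over WTEV. Mrgpra2b thus went against the label of the set, since active and dead PRMT1 gave overlapping levels. The value for dKOPRMT over dKOMut was -0.523 without dKOPRMT replicate 1, -0.123 without dKOPRMT replicate 2, -0.123 without dKOMut replicate 1 and -0.469 without dKOMut replicate 2.

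Its counts are uncertain because of a near-identical neighbour, Mrgpra2a, and the sources used here do not say how reads that map to both were assigned. Transcript Mrgpra2a-201 was identical to Mrgpra2b-201 at 1233 of 1236 aligned bases (99.76%) and to Mrgpra2b-202 at 1221 of 1234 (98.95%). The 250 upstream bases of the 2 genes were identical throughout. Mrgpra2a had 1.20 and 1.52 CPM in dKOPRMT, 2.52 and 1.30 CPM in dKOMut, 1.08 and 1.84 CPM in dKOEV, and 1.76 and 1.40 CPM in WTEV. With both genes summed, the level was 10.7 and 8.70 CPM in dKOPRMT, 14.0 and 10.4 CPM in dKOMut, 5.98 and 7.34 CPM in dKOEV, and 12.6 and 12.1 CPM in WTEV. The sum kept dKOEV as the lowest group, and dKOPRMT overlapped with dKOMut in the sum as well.

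Trpm2 encodes a calcium-permeable channel opened by ADP-ribose and by oxidative stress (ENSMUSG00000009292.18, chr10:77907722-77969872, minus strand, 34 exon blocks). It had 25.3 and 27.1 CPM in dKOPRMT, 57.5 and 51.2 CPM in dKOMut, 35.1 and 34.8 CPM in dKOEV, and 19.8 and 17.8 CPM in WTEV. The dKOMut libraries stood alone at the top, and dKOPRMT lay between dKOEV and WTEV, with no overlap between any groups. The log2 fold change was -1.05 ± 0.11 for dKOPRMT over dKOMut, -0.41 ± 0.11 for dKOPRMT over dKOEV, 0.64 ± 0.10 for dKOMut over dKOEV and 0.89 ± 0.11 for dKOEV over WTEV. Trpm2 and Olfm4 shared this order of groups, dKOMut above dKOEV above dKOPRMT above WTEV.

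**Figure D1:**
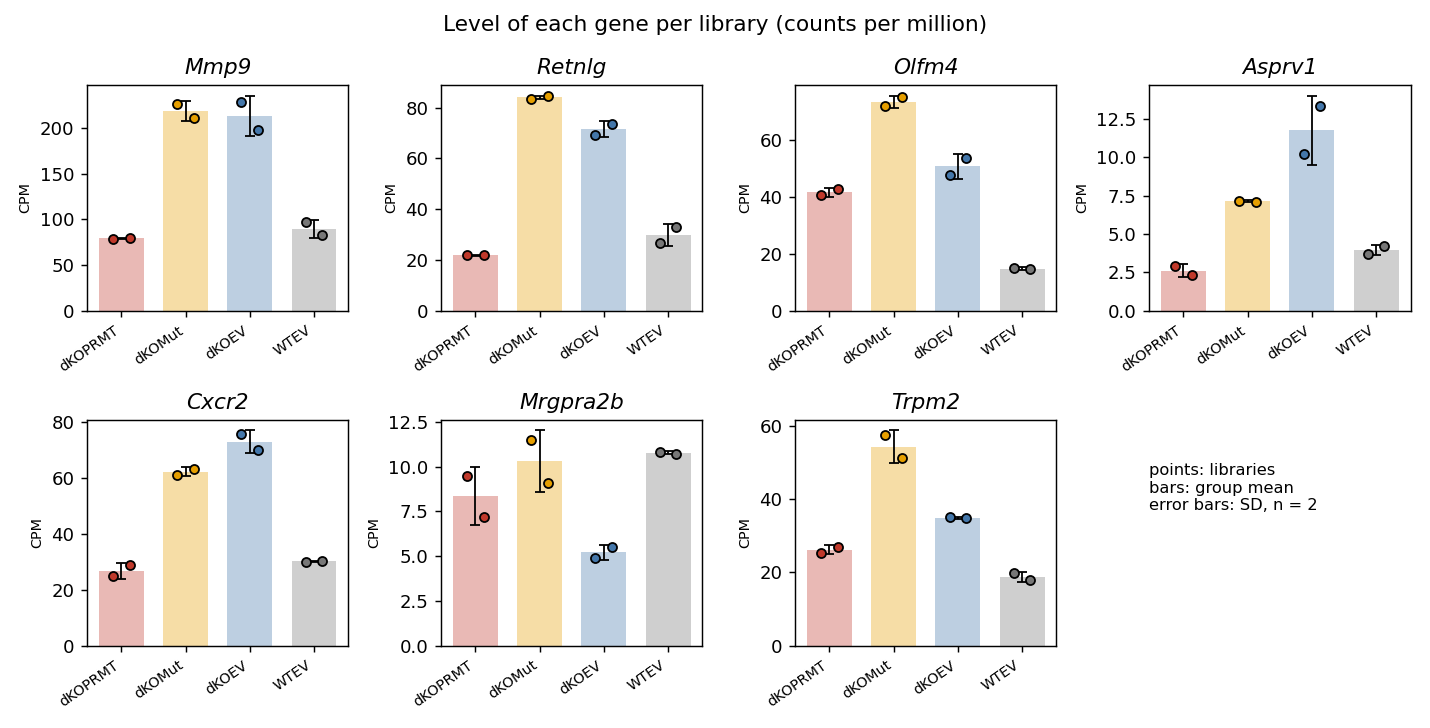
Level of each of the 7 genes, in CPM, by group; points are libraries, bars group means and error bars SDs (n = 2). The dKOPRMT bars lie below the dKOMut bars in every panel, while dKOEV is the lowest group for Mrgpra2b alone, at 4.90 and 5.51 CPM.

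Set beside each other, the 7 genes showed 4 orders of groups by mean. Mmp9, Retnlg, Cxcr2 and Asprv1 had dKOPRMT below WTEV, and dKOMut and dKOEV above both, with dKOMut above dKOEV for Mmp9 and Retnlg and dKOEV above dKOMut for Cxcr2 and Asprv1. For Mmp9 neither dKOMut and dKOEV nor WTEV and dKOPRMT differed beyond their spread. Olfm4 and Trpm2 had dKOPRMT between WTEV and dKOEV, and Mrgpra2b stood apart. Per kilobase of exon, Retnlg had the highest mean level of the 7, at 36.0 CPM per kilobase in dKOPRMT, 138 in dKOMut, 118 in dKOEV and 49.2 in WTEV. Mmp9 followed in dKOEV with 67.2 CPM per kilobase, and Trpm2 was among the lowest 2 in each group, with 3.59 CPM per kilobase in dKOPRMT, 7.45 in dKOMut, 4.79 in dKOEV and 2.58 in WTEV. The median over the 7 genes of the log2 CPM relative to the mean of the 8 libraries was -0.78 and -0.60 in dKOPRMT, 0.75 and 0.65 in dKOMut, 0.64 and 0.55 in dKOEV, and -0.54 and -0.53 in WTEV. By this measure libraries of the same group lay close together.

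For dKOPRMT over dKOMut the median log2 fold change of the 7 genes was -1.22, with a range of -1.94 to -0.31, against -0.001 for all tested genes. Of the 7, 6 were called lower and 0 higher at an adjusted p of 0.05 (edgeR's quasi-likelihood test, Benjamini-Hochberg adjustment), where of all tested genes 1.68% were called lower, 1.43% higher and 3.11% either way. For dKOPRMT over dKOEV the median was -1.43, with 6 called lower and 1, Mrgpra2b, called higher, where of all tested genes 8.67% were called lower, 5.96% higher and 14.6% either way. For dKOMut over dKOEV the median was 0.23, with 3 called higher (Mrgpra2b, Olfm4 and Trpm2) and 1, Asprv1, called lower, where of all tested genes 4.24% were called higher, 7.08% lower and 11.3% either way. For dKOEV over WTEV the median was 1.26, with 6 called higher and 1 lower, where of all tested genes 8.44% were called higher, 7.0% lower and 15.4% either way. The choice of the genes used these contrasts, so the counts are a description, and the 3 comparisons among the dKO groups share libraries. The number of all genes called between dKOPRMT and dKOMut was 396, and it was 171 without dKOPRMT replicate 1, 205 without dKOPRMT replicate 2, 244 without dKOMut replicate 1 and 240 without dKOMut replicate 2. Between dKOPRMT and dKOEV it was 1864, and 1133 and 1058 without dKOPRMT replicates 1 and 2, and between dKOEV and WTEV it was 1967, and 1209 and 1149 without WTEV replicates 1 and 2.

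**Figure D2:**
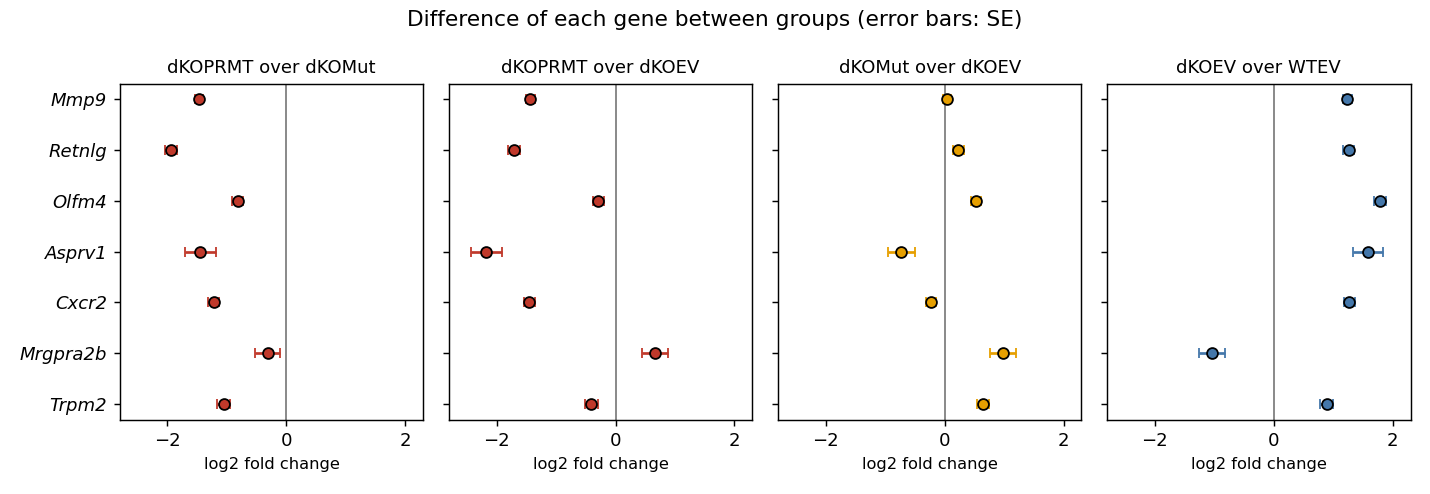
Log2 fold change of each of the 7 genes in 4 comparisons, with standard errors as bars and a vertical line at 0. All 7 points lie left of 0 for dKOPRMT over dKOMut, from -1.94 for Retnlg to -0.31 for Mrgpra2b, and Mrgpra2b lies opposite to the other 6 in the comparisons of dKOPRMT with dKOEV and of dKOEV with WTEV.

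Of 47 other late neutrophil genes that passed the filter, from a list of 52 chosen with earlier results of these data known, 18 fell in dKOPRMT compared with dKOMut and 0 rose. The formyl peptide receptor genes were among them. Fpr1 had 9.93 and 8.75 CPM in dKOPRMT, against 20.7 and 24.5 CPM in dKOMut (-1.27 ± 0.15, edgeR adjusted p = 2.2e-07). Fpr2 had 20.96 and 19.2 CPM in dKOPRMT, against 39.5 and 38.2 CPM in dKOMut (-0.95 ± 0.11, edgeR adjusted p = 2.7e-07). The niacin receptor gene Hcar2 fell by 1.07 ± 0.15 on the log2 scale (edgeR adjusted p = 8.1e-06), the collagenase gene Mmp8 by 0.50 ± 0.04 (edgeR adjusted p = 3.2e-10), the MYC antagonist gene Mxd1 by 0.44 ± 0.06 (edgeR adjusted p = 9.6e-06) and the chemokine gene Ccl6 by 0.42 ± 0.06 (edgeR adjusted p = 2.4e-06). The median of the 47 was -0.16, against -0.001 for all genes and 29 did not pass the threshold. The share called was 38.3% of the 47, beside 3.11% of all tested genes. The number that fell was 13 to 21 over the libraries left out in turn, and 1 gene rose without dKOEV replicate 1 or 2.

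The same 47 genes were counted in the other comparisons. Between dKOPRMT and dKOEV 21 fell and 4 rose, with a median of -0.19 (2 rose without dKOPRMT replicate 1). Between dKOMut and dKOEV 10 fell and 10 rose, with a median of 0.07 (9 fell and 6 rose without dKOEV replicate 2, and 6 fell and 7 rose without dKOMut replicate 1). Between dKOEV and WTEV 24 rose and 6 fell, with a median of 0.26. Ccl6 did not follow the described genes here, with 192 and 203 CPM in dKOEV and 200.5 and 200.1 CPM in WTEV. The shares of the 47 called in these comparisons were 53.2%, 42.55% and 63.8%, in the same order. Over all tested genes the shares were 14.6%, 11.3% and 15.4%.

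The granule lists of the earlier stages were counted in the same way, and the difference between lists was not tested. Lists here and below share genes, so some genes are counted more than once. Mmp8 is on the late and secondary granule lists, and Lyz2 is on both granule lists. Of 23 tested secondary granule genes 8 fell in dKOPRMT compared with dKOMut and 1, the transcription factor gene Cebpe, rose, with a median of -0.12. The lactoferrin gene Ltf had 1622 and 1602 CPM in dKOPRMT, against 2112 and 2137 CPM in dKOMut (-0.40 ± 0.03, edgeR adjusted p = 2.6e-11). The calgranulin gene S100a9 fell by 0.24 ± 0.03 (edgeR adjusted p = 1.6e-05), and Lcn2, Cd177 and Ngp by 0.23 ± 0.04, 0.23 ± 0.04 and 0.18 ± 0.03. Against dKOEV the direction was the opposite, with 12 rising and 2 falling in dKOPRMT, and the median was 0.18. With dead PRMT1 15 rose and 1 fell in dKOMut compared with dKOEV, with a larger median of 0.31. Between dKOEV and WTEV 18 rose and 1 fell, with a median of 0.61. The shares called in these comparisons were 39.1%, 60.9%, 69.6% and 82.6%, in the same order. Over all tested genes the shares were 3.11%, 14.6%, 11.3% and 15.4%. The 1 rising gene of the first comparison did not pass without dKOMut replicate 1 or dKOPRMT replicate 1 or 2, and of the 2 falling genes of the second 0 were called without dKOPRMT replicate 2 and 1 without any single one of the other libraries but dKOEV replicate 1.

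Of 17 primary granule genes 12 rose in dKOPRMT compared with dKOMut and 0 fell, with a median of 0.18. The proteinase 3 gene Prtn3 had 1861 and 1872 CPM in dKOPRMT, against 1432 and 1500 CPM in dKOMut (0.35 ± 0.03, edgeR adjusted p = 1.8e-09). The ficolin gene Fcnb rose by 0.66 ± 0.06 (edgeR adjusted p = 4e-09), and Prss57, Elane, Ms4a3 and Mpo by 0.45 ± 0.09, 0.31 ± 0.03, 0.30 ± 0.04 and 0.20 ± 0.03. The number that rose was 8 without dKOMut replicate 2 or dKOPRMT replicate 2. Against dKOEV 12 rose and 0 fell in dKOPRMT, with a median of 0.38, and 10 rose and 0 fell in dKOMut, with a median of 0.21. The shares called in these comparisons were 70.6%, 70.6% and 58.8%, in the same order. Over all tested genes the shares were 3.11%, 14.6% and 11.3%.

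**Figure D3:**
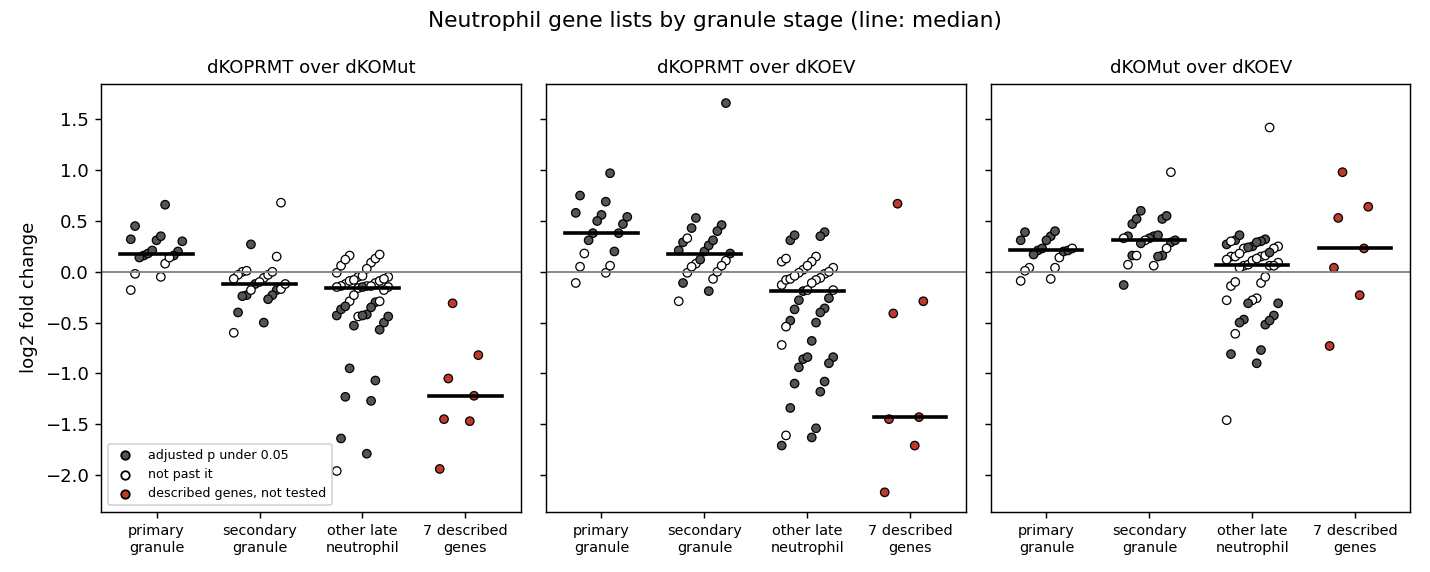
Log2 fold change of each tested gene of the primary granule, secondary granule and other late neutrophil lists, and of the 7 described genes, in 3 comparisons; horizontal lines are medians, and filled dark points passed an adjusted p of 0.05. For dKOPRMT over dKOMut the medians are 0.18, -0.12, -0.16 and -1.22 from left to right. The 7 genes were picked because they differed between these groups, so their median is not a further step after the lists. Mmp8 appears in both the secondary granule and other late lists, and Lyz2 in both granule lists.

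Markers of other cell types moved between the same groups. Of 9 tested mast cell and basophil markers 7 fell and 0 rose in dKOPRMT compared with dKOMut (77.8%, beside 3.11% of all tested genes). Their summed level was 452 to 465 CPM in dKOPRMT, 834 to 838 CPM in dKOMut, 685 to 706 CPM in dKOEV and 1279 to 1327 CPM in WTEV, with Mcpt4 at 0 in all libraries. Hdc, 1 of these markers, is also on the list of other late neutrophil genes. The summed level of 15 monocyte and macrophage markers, all with counts in every library, was 3890 to 3922 CPM in dKOPRMT, 3734 to 3841 CPM in dKOMut, 4968 to 5031 CPM in dKOEV and 6329 to 6382 CPM in WTEV. Of these 15, 6 rose and 0 fell in dKOPRMT compared with dKOMut, where 3.11% of all tested genes were called. Against dKOEV, 11 of them fell and 1 rose in dKOPRMT, where 14.6% of all tested genes were called. The 9 eosinophil markers summed to 259 to 270 CPM in dKOPRMT, 174 to 204 CPM in dKOMut, 278 to 289 CPM in dKOEV and 248 to 265 CPM in WTEV. The 11 megakaryocyte and platelet markers summed to 214 to 216 CPM in dKOPRMT, 241 to 248.9 CPM in dKOMut, 373.5 to 397 CPM in dKOEV and 327 to 345 CPM in WTEV. Of 10 tested, 6 fell and 0 rose in dKOPRMT compared with dKOEV (60.0%, beside 14.6% of all tested genes). The 13 erythroid markers, with 6 globin genes at 0, summed to 48.4 to 50.2 CPM in dKOPRMT, 58.9 to 63.0 CPM in dKOMut, 94.0 to 94.7 CPM in dKOEV and 127 to 132 CPM in WTEV. Of 5 tested, 3 fell and 0 rose in dKOPRMT compared with dKOEV (60.0%, beside 14.6% of all tested genes). In dKOPRMT compared with dKOMut, 1 of 9 eosinophil markers rose, 1 of 10 megakaryocyte and platelet markers fell and 0 of 5 erythroid markers were called. Of 13 tested progenitor markers 3 fell and 0 rose in the same comparison, where 3.11% of all tested genes were called. Against dKOEV, 8 progenitor markers fell and 2 rose in dKOPRMT, where 14.6% of all tested genes were called. B cell markers summed to 8.73 to 13.9 CPM in any library. T and NK cell markers, with Cd3e at 0, summed to 113 to 115 CPM in dKOPRMT, 88.3 to 93.1 CPM in dKOMut, 76.8 to 80.5 CPM in dKOEV and 95.6 to 98.5 CPM in WTEV. Nearly all of that sum was Nkg7, which is also on the list of primary granule genes. Nkg7 alone had 112.2 and 113.6 CPM in dKOPRMT and 87.7 and 92.8 CPM in dKOMut. It had 75.7 and 79.9 CPM in dKOEV and 93.9 and 97.2 CPM in WTEV. The part of these cell types and of the Prmt1 level in the results was not tested.

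Of 17 transcription factor genes of the granulocyte lineage, 3 rose and 2 fell in dKOPRMT compared with dKOMut. That was a share of 29.4% called, beside 3.11% of all tested genes. Gfi1, a repressor needed for neutrophil development, had 130 and 137.5 CPM in dKOPRMT, against 89.0 and 86.9 CPM in dKOMut (0.60 ± 0.07, edgeR adjusted p = 4.7e-08). Cebpe, which drives secondary granule genes, rose by 0.27 ± 0.06 (edgeR adjusted p = 0.007), and Egr1 by 0.55 ± 0.12 (edgeR adjusted p = 0.0053). The falling genes were Mxd1, named above, and Irf8, a factor of the monocyte branch (-0.21 ± 0.06, edgeR adjusted p = 0.025). Irf8 lost its call without any of the 4 libraries compared, Cebpe without dKOMut replicate 1 or either dKOPRMT library, and Egr1 without dKOMut replicate 2 or dKOPRMT replicate 1.

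Around Cxcr2, 14 ligand and traffic receptor genes were tested. In dKOPRMT compared with dKOMut 3 fell and 0 rose (21.4% called, beside 3.11% of all tested genes). These were Fpr1, Fpr2 and the complement C5a receptor gene C5ar1, which had 37.9 and 36.5 CPM in dKOPRMT, against 47.2 and 51.1 CPM in dKOMut (-0.40 ± 0.09, edgeR adjusted p = 0.0031). C5ar1 lost its call without dKOMut replicate 2 or dKOPRMT replicate 2. The CXCR2 ligand gene Cxcl2 had 0.953 and 0.557 CPM in dKOPRMT, 1.12 and 0.543 CPM in dKOMut, 2.55 and 2.11 CPM in dKOEV, and 2.01 and 3.23 CPM in WTEV. With only 10 to 60 counts a library, Cxcl2 passed in none of the comparisons made, nor did the ligand genes Cxcl3, Cxcl5 and Ppbp. Cxcr4, whose product holds neutrophils in the marrow, had 185.5 and 181 CPM in dKOPRMT, against 200.1 and 210.0 CPM in dKOMut, and did not pass (-0.16 ± 0.05, edgeR adjusted p = 0.078).

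Around Mmp9, 15 metalloproteinase and inhibitor genes were tested. In dKOPRMT compared with dKOMut 3 fell and 2 rose (33.3% called, beside 3.11% of all tested genes). Beside Mmp8 and Lcn2, whose product binds gelatinase B, the membrane-type enzyme gene Mmp25 fell (-0.57 ± 0.13, edgeR adjusted p = 0.0079), a call that was lost without dKOMut replicate 1 or dKOPRMT replicate 1. The macrophage elastase gene Mmp12 rose, with 92.5 and 89.3 CPM in dKOPRMT, against 56.1 and 57.9 CPM in dKOMut (0.67 ± 0.06, edgeR adjusted p = 9.6e-10). Its levels were 180 and 194 CPM in dKOEV and 214 and 220 CPM in WTEV, an order of groups unlike that of Mmp9. The collagenase gene Mmp13 rose by 1.12 ± 0.21 (edgeR adjusted p = 0.00048), a call that was lost without dKOPRMT replicate 2. Its levels were low in both groups, at 5.87 and 8.70 CPM in dKOPRMT and 4.15 and 2.44 CPM in dKOMut. Both lay below dKOEV (19.35 and 16.93 CPM) and WTEV (67.5 and 66.3 CPM).

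Around Trpm2, 13 genes of ADP-ribose and NAD supply were tested. In dKOPRMT compared with dKOMut 1 fell and 0 rose, a share of 7.69% beside 3.11% over all tested genes. That gene was Bst1, which encodes the surface enzyme CD157 that turns over NAD. It had 48.9 and 38.0 CPM in dKOPRMT, 87.7 and 81.0 CPM in dKOMut, 73.7 and 73.5 CPM in dKOEV, and 43.6 and 40.9 CPM in WTEV (-0.96 ± 0.09 for dKOPRMT over dKOMut, edgeR adjusted p = 2.2e-09). Its libraries were high in dKOMut and dKOEV and low in dKOPRMT and WTEV, with no overlap between these pairs of groups.

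Genes of the same families as the 7 were mostly at few counts. Of 34 listed relatives 11 had 0 counts in all libraries and 13 were tested, of which 1 rose and 0 fell in dKOPRMT compared with dKOMut, a share of 7.69% beside 3.11% over all tested genes (without dKOEV replicate 1 or 2, 1 also fell). The rising gene was Olfm1, with 78.0 and 77.0 CPM in dKOPRMT, 55.7 and 50.4 CPM in dKOMut, 75.5 and 76.5 CPM in dKOEV, and 60.9 and 56.4 CPM in WTEV (0.54 ± 0.08, edgeR adjusted p = 1.1e-05). Its direction was thus the opposite of that of Olfm4. The channel gene Trpm7 had a log2 fold change of 0.02 ± 0.06 (edgeR adjusted p = 0.92). Cxcr1, the gene of the related receptor CXCR1, had at most 9 counts in a library, and the resistin gene Retn at most 11.

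The likeness of all other genes to the described set was measured by Pearson's r, over the 8 libraries, between log2 CPM and the mean standardised profile of the 7 genes. The points fall into 4 groups that share libraries and depth, so the r values are a description. Among 9938 genes whose mean was at least 5 CPM, the 10 highest were Fpr2 (r = 0.985), Bst1 (0.982), Ifit1bl2 (0.980), Rasa3 (0.965), Nod1 (0.964), Adipor1 (0.955), Crebrf (0.95), Bckdhb (0.946), Rell1 (0.936) and Pacs1 (0.932). Of these 10, Fpr2 alone is on the list of late neutrophil genes. Within the set, the r of each gene with the mean of the other 6 was 0.95 for Mmp9 and for Retnlg, 0.89 for Cxcr2 and for Trpm2, 0.75 for Asprv1, 0.68 for Olfm4 and -0.39 for Mrgpra2b.

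**Figure D4:**
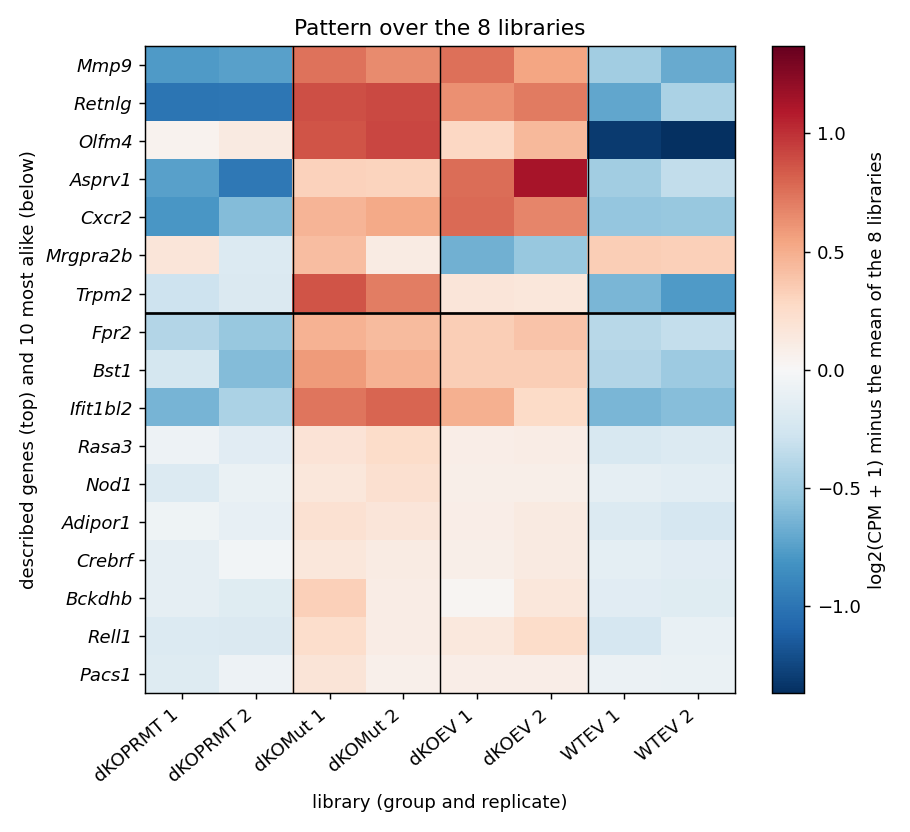
Log2(CPM + 1) of each gene minus its mean over the 8 libraries, with libraries in columns, the 7 described genes above the black line and the 10 genes most like them below it. Red marks libraries above and blue those below the gene's mean; the dKOMut and dKOEV columns are red for 6 of the 7 described genes, and Mrgpra2b has blue dKOEV columns.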

How the data were processed

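The authors deposited 1 table of raw counts per gene and library, with gene lengths. Per the submitters' processing notes, STAR 2.7.6a, Trim Galore 0.6.6 and featureCounts were used with GRCm38 (mm10). The featureCounts version, the strand setting and the annotation were not given in the sources used here. Per the labels' protocols, RNA came from an RNeasy Plus Micro kit and libraries from an NEB Ultra II Directional kit. Without the strand setting, antisense genes cannot be separated, but no exon of another listed gene overlapped those of the 7.

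The analysis used edgeR 4.0.16 in R 4.3.3, with filterByExpr, TMM scaling and a robust quasi-likelihood fit of the 8 libraries in which group was the sole term (4 residual degrees of freedom, common biological coefficient of variation 0.0637). Adjusted p-values are Benjamini-Hochberg over 12744 genes, with a threshold of 0.05. CPM use TMM-scaled totals. Groups were taken from the titles. Neighbouring groups were said to differ beyond their spread where the gap between means exceeded the sum of their SDs. The code of the fit was run on simulated counts with known changes in dKOPRMT alone. That run does not measure its error rates in these libraries. Replicates differed by more than sampling noise (chi-square per degree of freedom 3.65 to 6.43).

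The members, gene lists and named genes were chosen with earlier results of these data known. Named genes were the 7, Prmt1, Ctnnb1 and Hoxa9, up to 6 called genes of each list by smallest p in dKOPRMT against dKOMut, relatives with at least 10 counts and the 10 most alike genes, some left out for room. Xist, Ddx3y and Cxcl2 were added after their values were seen. Alternatives were other size factors, other filters, DESeq2 1.42.0, the compared groups alone, a replicate block and each library left out. For the gene lists other than the late neutrophil list, leaving libraries out was added after the data were seen.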

Additional observations from a re-analysis of the deposited data

How the results depend on the processing

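The numbers of all genes called and of other late neutrophil genes called kept within 1.5 times, and the medians of the 7 genes within 1 SD of replicates, under DESeq2 size factors, other filters, the DESeq2 test, the compared groups alone and the replicate block. Counts for the other gene lists and the cell type markers were not made under these settings. Over the libraries left out in turn, the genes called numbered 171 to 550 for dKOPRMT against dKOMut, 1058 to 1945 for dKOPRMT against dKOEV, 977 to 1452 for dKOMut against dKOEV and 1149 to 1996 for dKOEV against WTEV. Over the same omissions, the other late neutrophil genes called numbered 13 to 20 for dKOMut against dKOEV. The medians of the 7 genes were -1.3 to -1.12 for dKOPRMT over dKOMut, -1.5 to -1.32 for dKOPRMT over dKOEV, 0.192 to 0.282 for dKOMut over dKOEV and 1.21 to 1.32 for dKOEV over WTEV. The log2 fold change of Mmp9 between dKOMut and dKOEV ranged over the omissions from -0.058 (without dKOEV replicate 2) to 0.153 (without dKOEV replicate 1) and was -0.00543 without dKOMut replicate 1, and the cause was not tested.

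Samples of the same number in different groups did not deviate together (correlations -0.047 to 0.018), so the numbers give no pairing. With the replicate block 403, 1853, 1414 and 1952 genes were called in the 4 comparisons, in the same order, against 396, 1864, 1442 and 1967 without it, and 18, 25, 19 and 30 of the other late neutrophil genes. With 2 libraries a group, no library could be tested as an outlier within its group. Depth limits Asprv1 and Mrgpra2b most, with 46 to 298 and 77 to 247 counts a library.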
